A study of Mus musculus with 45 samples.

Results

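The late-gained peaks are 218 accessible regions of mouse embryonic stem cells whose ATACseq signal was higher after 24 h of depletion of SOX2 and also after 24 h of depletion of OCT4, with little change after 2 h of either. They make up 0.118% of the 184964 peaks of the series. They were chosen by their measured values. Counts were scaled to 1000000 per library (CPM), over the column total without mitochondrial peaks, and averaged over the replicates of a group. A peak was kept when the 24 h mean was at least 4 CPM and at least 75% above the untreated (NT) mean in both lines, and when the 2 h mean was at most 25% above the NT mean in both lines. The 24 h, 2 h and NT values of the SOX2-FKBP and OCT4-FKBP lines are therefore given as a description, with no test.

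SOX2 and OCT4 are the DNA-binding partners that open many enhancers of pluripotent cells, and NANOG is a homeodomain protein of the same network. Loss of either partner closes enhancers within hours and later lets the cells leave the pluripotent state. Promoters with many CG dinucleotides are accessible in most cell types and are bound by SP, KLF, ETS and NRF1 proteins.

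Each line carried the FKBP degron on the named factor, so that 500 nM dTAG-13 sends the fusion protein to the proteasome. SOX2-FKBP and NANOG-FKBP were made in E14 cells and OCT4-FKBP in V6.5 cells. For E14 cells the paper gives a medium without serum, with LIF and inhibitors of MEK and GSK3. It states no separate medium for OCT4-FKBP. The NT cells received DMSO. SOX2-FKBP had 2 libraries each at NT, 0.5, 1, 2, 6 and 24 h, OCT4-FKBP had 2 each at NT, 2, 6 and 24 h, and NANOG-FKBP had 2 at NT and 3 each at 2, 6 and 24 h. The labels do not say which libraries came from separate cultures or clones, so p-values measure the spread between these libraries. These files hold no protein level, so the depletion itself was not measured here.

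The 31 libraries held 1817191 to 17575631 counts. The 3 treated NANOG-FKBP libraries numbered 2 stood apart, with 1817191 to 3272168 counts and 13.2% to 17.6% of them in mitochondrial peaks, against at most 6.65% in the others. Counts on chromosome 8 were 5.30% to 5.46% in SOX2-FKBP, 7.66% to 7.94% in OCT4-FKBP and in NANOG-FKBP fell into sets, with 5.73% to 5.82% in the libraries numbered 1, 6.66% to 6.68% in the treated ones numbered 2, and 7.32% to 7.39% in those numbered 3 and the second NT library. All 8 pluripotency markers had a peak within 2000 bp of their start, with Pou5f1 at 85.0, 115.5 and 95.2 CPM in the NT cells of the SOX2, OCT4 and NANOG lines. The summed CPM of those marker peaks was 270.7 to 293.2 in SOX2-FKBP NT and 198.0 to 199.7 at 24 h, and 327.4 to 330.3 in OCT4-FKBP NT and 188.6 to 211.0 at 24 h. Within that sum Pou5f1, Nanog, Tfcp2l1 and Dppa3 were lower at 24 h in both lines. Klf4 was higher, with means of 34.2 and then 40.7 CPM in SOX2-FKBP and 30.9 and then 42.1 in OCT4-FKBP. Sox2, Zfp42 and Esrrb moved by fewer CPM. In NANOG-FKBP the sum was 284.8 to 307.4 in NT and 270.7 to 371.8 at 24 h. The sum over the primitive endoderm markers was 36.5 to 39.4 in SOX2-FKBP NT and 33.9 to 48.3 at 24 h, and 56.5 to 61.5 in OCT4-FKBP NT and 70.5 to 85.2 at 24 h. The trophectoderm sum was 53 to 53.9 and then 53.03 to 60.2 in SOX2-FKBP, and 82.5 to 106 and then 74.1 to 96.6 in OCT4-FKBP. The sum over the 4 fibroblast markers was 27.8 to 29.0 and then 32.0 to 37.5 in SOX2-FKBP, and 43.5 to 48.1 and then 44.7 to 56.0 in OCT4-FKBP. In both lines Thy1 was lower at 24 h, while Col1a1, Col1a2 and Twist2 were higher. Gata3 and Gata4 had no such peak. The part of any other cell type in the late-gained peaks was not tested, and in bulk cells a larger share of open cells and more signal per cell cannot be told apart.

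A set of 5 windows of 150 bases around peak summits gives examples of sequence among the late-gained peaks. They run from a distal site with no CG dinucleotide to promoters with 10, and do not span the whole range. Over 200 bp around the summit, the GC content was 77.5% at the peak nearest to Gm43799. Its median over the promoter late-gained peaks was 66.5%. The windows are from the plus strand of the mm10 build, read from RefSeq GRCm38.p6, overlap no annotated exon, and carry each CG dinucleotide in capitals.
Frmd4b (chr6:97607758-97607907): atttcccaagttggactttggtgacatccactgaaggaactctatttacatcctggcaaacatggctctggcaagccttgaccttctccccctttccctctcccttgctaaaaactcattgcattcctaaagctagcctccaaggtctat
Mtnr1a (chr8:45068939-45069088): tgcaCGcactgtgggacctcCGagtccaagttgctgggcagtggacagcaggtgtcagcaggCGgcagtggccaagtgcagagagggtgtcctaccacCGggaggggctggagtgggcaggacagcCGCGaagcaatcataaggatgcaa
Ano10 (chr9:122294520-122294669): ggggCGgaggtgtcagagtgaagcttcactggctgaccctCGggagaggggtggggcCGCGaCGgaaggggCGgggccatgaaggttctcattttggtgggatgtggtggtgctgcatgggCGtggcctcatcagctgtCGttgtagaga
Cyth1 (chr11:118248669-118248818): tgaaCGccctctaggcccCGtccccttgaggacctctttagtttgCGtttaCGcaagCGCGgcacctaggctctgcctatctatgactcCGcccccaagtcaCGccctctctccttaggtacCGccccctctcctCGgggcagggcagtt
Golm1 (chr13:59675815-59675964): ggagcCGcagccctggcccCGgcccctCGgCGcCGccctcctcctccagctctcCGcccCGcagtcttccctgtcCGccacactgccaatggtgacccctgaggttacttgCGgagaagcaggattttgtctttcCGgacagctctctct
The Frmd4b window is intronic, with a GC content of 46.7%. The windows at Mtnr1a, Ano10, Cyth1 and Golm1 lie just upstream of the gene start and hold 6, 8, 10 and 10 CG dinucleotides, with GC contents of 62.7%, 63.3%, 62.0% and 66.7%. The Ano10, Cyth1 and Golm1 windows each hold 2 copies of the GC box, GGGCGG on either strand, which the SP and KLF zinc finger proteins bind.

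For comparison, the 30060 peaks that met the 24 h CPM limit and the 2 h limit in both lines and missed only the 24 h ratio in at least 1 line were used. Together with the late-gained peaks they are 30278 eligible peaks, of which 0.720% are late-gained. Thresholds cut a continuous range. The peak at the Tgfbr2 promoter was just inside the 24 h limit in SOX2-FKBP at 1.751 times NT and a peak near Gm15704 was just outside at 1.749. In OCT4-FKBP the values were 1.751 near AC149224.1 and 1.747 near Tap1. For the 2 h limit the peak near Gm27209 was inside at 1.249 and one near Gm24734 outside at 1.251 in SOX2-FKBP, and in OCT4-FKBP the peak near Gm25591 was inside at 1.248 and one near Cnnm4 outside at 1.251. At 24 h the lowest mean was 4.05 CPM near Gm31224 in SOX2-FKBP, with a peak near Irx5 outside at 3.98, and 4.05 CPM near Samd4b in OCT4-FKBP, with a peak near Gm12363 outside at 3.98. A further 2460 peaks failed the SOX2-FKBP 24 h ratio alone, whereas 225 failed the OCT4-FKBP 24 h ratio alone. The number of late-gained peaks was 471 without the first SOX2-FKBP 24 h library, and 150 after a correction of each library for GC content, of which 72 were among the 218.

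The signal was near NT up to 2 h, higher at 6 h and highest at 24 h in both lines. The median ratio to NT over the 218 peaks was 1.12, 1.12, 1.11, 1.39 and 1.94 at 0.5, 1, 2, 6 and 24 h of SOX2 depletion, while over the comparison peaks it was 1.01, 1.02, 1.02, 1.07 and 1.12. In OCT4-FKBP it was 1.12, 1.33 and 2.18 at 2, 6 and 24 h, against 1.02, 1.04 and 1.14. At 6 h the peaks had covered a median of 40.5% of their 24 h difference from NT in SOX2-FKBP and 25.6% in OCT4-FKBP, and 174 and 194 of the 218 were below 50%. These ratios share the NT libraries with the rule. The 24 h ratio was larger in OCT4-FKBP than in SOX2-FKBP for 161 peaks, and it was 3 or more for 28 peaks in OCT4-FKBP and for 4 in SOX2-FKBP. The 4 lie nearest to Frmd4b, Zfp74, Ankrd37 and Gm31045. Both 24 h libraries were above both NT libraries for 218 of 218 peaks in SOX2-FKBP and 215 in OCT4-FKBP, where the background was 30.2% and 22.8% of all peaks tested. The rule used these libraries, so nothing is read from those counts. The exceptions in OCT4-FKBP lie nearest to Mir7008, Gm25591 and Gm27209 and were named after their values were seen.

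**Figure D1:**
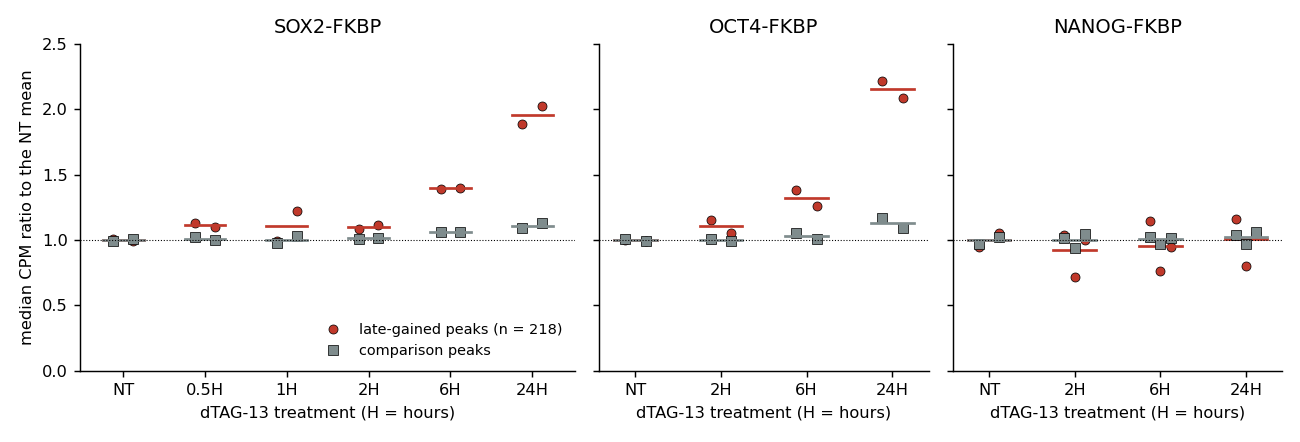
Median, over the 218 late-gained peaks (circles) and the 30060 comparison peaks (squares), of the CPM ratio to the NT mean of the same line, one point per library and a line at the mean of each group. At 24 h the late-gained peaks sit at 1.89 and 2.02 in SOX2-FKBP and at 2.22 and 2.09 in OCT4-FKBP, whereas the NANOG-FKBP 24 h libraries sit at 1.16, 0.802 and 1.06.

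The peaks with the largest 24 h ratios are described first, ranked by the smaller ratio of both lines. The highest was an intronic peak (chr6:97607408-97608200) 9708 bp downstream of the start of Frmd4b, which encodes a FERM-domain scaffold protein. Its CPM was 1.36 and 1.43 in SOX2-FKBP NT and 4.56 and 5.34 at 24 h, and 1.08 and 1.40 in OCT4-FKBP NT and 2.71 and 6.57 at 24 h. The rule chose the peak for this gain, so nothing is read from the gap between NT and 24 h. The OCT4-FKBP 24 h libraries lie far apart. In NANOG-FKBP it was 2.05 and 0.861 in NT and 1.93, 1.31 and 0.925 at 24 h, with full overlap.

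A peak at the promoter of Itpr2 (chr6:146501195-146502979), the type 2 inositol trisphosphate receptor that releases calcium from the endoplasmic reticulum, had the highest 24 h level of this group. It went from 7.1 and 6.82 CPM in NT to 11.1 and 12.6 at 6 h and 18.4 and 22.2 at 24 h in SOX2-FKBP. In OCT4-FKBP it went from 15.8 and 15.2 to 26.8 and 25.8 and then 57.9 and 54.4. The NANOG-FKBP values were 11.4 and 12.4 in NT and 12.8, 4.35 and 8.99 at 24 h, the lowest in the shallow library.

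The promoter peak of Mtnr1a (chr8:45068835-45069515), a melatonin receptor, was at 3.02 and 3.81 CPM in SOX2-FKBP NT and at 10.1 and 8.54 at 24 h. In OCT4-FKBP it was at 3.81 and 5.00 in NT, 7.76 and 8.15 at 6 h, and 19.0 and 23.3 at 24 h. It thus had already parted from NT at 6 h in OCT4-FKBP, while 1 of 2 SOX2-FKBP libraries at 6 h, 3.86, was level with NT.

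Of the other peaks of this group, one was 2359 bp upstream of Zfp74, a zinc finger gene (24 h over NT 3.13 in SOX2-FKBP and 3.48 in OCT4-FKBP). The next was in an intron 38979 bp downstream of the start of Arhgap10 (2.94 and 2.83). Another was 5222 bp upstream of Ankrd37, an ankyrin repeat gene induced by hypoxia (3.74 and 2.69). The rest were at the start of Fgg, the fibrinogen gamma chain (2.65 and 2.72), and 10869 bp downstream of the start of Gtf3c4, a subunit of the RNA polymerase III factor TFIIIC (2.61 and 3.04). In NANOG-FKBP the 24 h ratios of these peaks, from Zfp74 to Gtf3c4 in that order, were 1.50, 0.709, 0.959, 1.03 and 1.31. The peak with the largest OCT4-FKBP ratio, 14.5, lay nearest to 1700025N21Rik and had a ratio of 2.61 in SOX2-FKBP. It was at 0.498 and 0.756 CPM in OCT4-FKBP NT and at 8.54 and 9.69 at 24 h, so the size of the ratio rests on a very low start, and the peak was named after its values were seen.

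The peaks with the highest 24 h level had smaller ratios. The peak 348 bp upstream of Baiap2l1 (chr5:144357501-144358903), an adaptor that links membrane curvature to actin, was at 34.9 and 30.6 CPM in SOX2-FKBP NT and 60.1 and 56.6 at 24 h, and at 47.4 and 43.2 in OCT4-FKBP NT and 95.9 and 79.7 at 24 h. In NANOG-FKBP it was at 44.6 and 39.8 in NT and 46.4, 47.5 and 42.2 at 24 h. The NANOG-FKBP groups overlap. The peak was chosen for its 24 h gain in the other lines, so nothing is read from the gap between NT and 24 h there.

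The promoter peak of Dcun1d2 (chr8:13287059-13288594), a cofactor of cullin neddylation, had means of 24.6 and 43.9 CPM at NT and 24 h in SOX2-FKBP and 36.2 and 89.3 in OCT4-FKBP. That of Slc35f5 (chr1:125560038-125561860), a nucleotide sugar transporter family member, had 22.5 and 42.6 in SOX2-FKBP and 20.2 and 64.9 in OCT4-FKBP. The peak 9826 bp upstream of Dnm1 (chr2:32362687-32363913), the dynamin of synaptic endocytosis, had 16.8 and 39.6 in SOX2-FKBP and 12.3 and 37.8 in OCT4-FKBP. The 4 remaining ones were at Gm4673 beside Usf2, which encodes a bHLH factor that binds the E-box, Ano10, an anoctamin, Tdrp, and Cyth1, an exchange factor for ARF proteins. Their 24 h ratios were 1.751 to 1.91 in SOX2-FKBP and 1.92 to 2.43 in OCT4-FKBP.

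**Figure D2:**
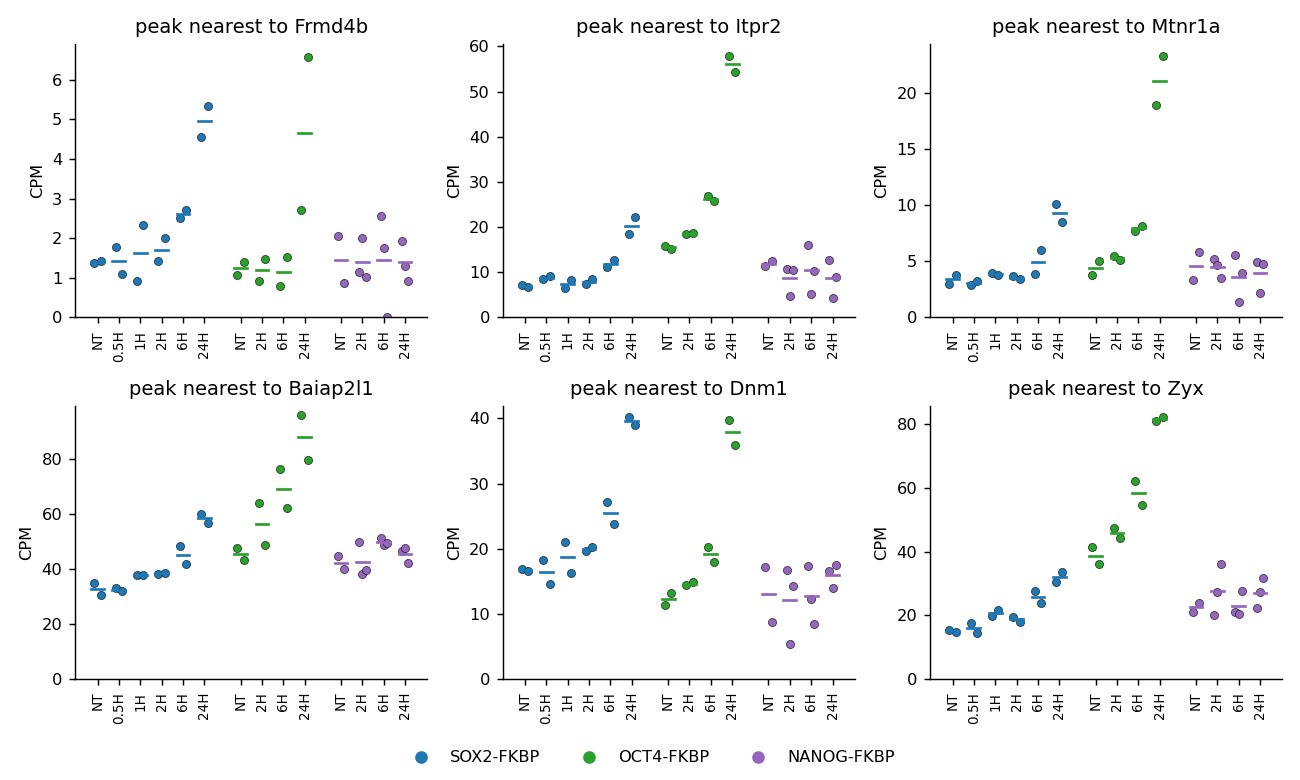
CPM of 6 late-gained peaks in each of the 31 libraries, one point per library with a line at the group mean, by line and time. At 24 h every SOX2-FKBP and OCT4-FKBP library is above the NT libraries of its line. An example is 40.2 and 39.1 against 16.9 and 16.7 for the peak nearest to Dnm1 in SOX2-FKBP. The rule chose the peaks for this gain, so nothing is read from it. The NANOG-FKBP points of the 4 times overlap.

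In SOX2-FKBP the 6 h libraries, compared with the mean of 0.5 and 1 h, gave a contrast of libraries that the rule did not use, although the fit of all 12 libraries shares its scaling and dispersion with those it did. All 218 peaks passed the count filter. Of these, 12 were higher at 6 h and 0 were lower by edgeR's quasi-likelihood test with Benjamini-Hochberg adjustment over 160432 peaks, which is 5.50%, beside a background of 0.541% higher and 2.24% lower among all peaks tested. At an unadjusted p under 0.05, 101 (46.3%) were higher and 0 lower, beside 5.96% of all peaks tested. The median log2 fold change was 0.36, with a median SE of 0.19, against 0.07 over the comparison peaks and 0.03 over the 155681 peaks tested in both fits, and it was above 0 for 200 of the 218. Both 6 h libraries were above all 4 earlier ones for 104 peaks (47.7%), beside 10.5% of all peaks tested. A fit of the 6 libraries at 0.5, 1 and 6 h alone called 6 of the 218 higher and 0 lower, beside 706 higher and 3549 lower of 142482 peaks, with a median log2 fold change of 0.35. The number of calls was sensitive. DESeq2's Wald test called 0 of the 218 higher and 0 lower, beside 115 higher and 1699 lower of all 160432 peaks. It had 42 higher and 0 lower at an unadjusted p under 0.05, beside 2834 and 7849 of all peaks. The median log2 fold change was 0.32 and 0.37 without the first and the second 6 h library. It was 0.36 and 0.33 without those at 0.5 h, and 0.29 and 0.41 without those at 1 h. With an offset for GC content 4 of the 218 were called higher, beside 965 of all 160432 peaks. The median log2 fold change over the 218 was then 0.27.

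The 12 peaks included those nearest to Fzd7, a Wnt receptor, with a log2 fold change of 0.90 (SE 0.25, edgeR adjusted p = 0.034), and to Gm24032, 81639 bp upstream of the scaffold gene Iqgap2, at 0.78 (SE 0.21, edgeR adjusted p = 0.035). The peak within Fzd7 (chr1:59483742-59484118) was at 2.29, 2.19, 2.39 and 3.21 CPM at 0.5 and 1 h and at 4.90 and 4.40 at 6 h. Its 24 h values in SOX2-FKBP, 3.59 and 5.66, lay on either side of those at 6 h. Gm17334 (0.72, SE 0.17, edgeR adjusted p = 0.011), Golm1, a Golgi membrane protein (0.69, SE 0.18, edgeR adjusted p = 0.024), Wipf3, which binds WASP family actin regulators (0.69, SE 0.18, edgeR adjusted p = 0.031), and Tcf24, a bHLH gene (0.60, SE 0.15, edgeR adjusted p = 0.018), followed. The Golm1 promoter peak (chr13:59675019-59676100) was at 6.36, 9.50, 6.61 and 8.39 CPM at 0.5 and 1 h, at 11.7 and 12.5 at 6 h and at 13.5 and 14.1 at 24 h. The Zyx promoter peak (chr6:42349079-42350916), at the gene of the focal adhesion protein zyxin, was also called, with a log2 fold change of 0.50 (SE 0.14, edgeR adjusted p = 0.040). It was at 17.6, 14.4, 19.8 and 21.6 CPM at 0.5 and 1 h and at 27.5 and 24.0 at 6 h. The Dnm1 and Slc35f5 peaks described above were called as well, at 0.53 and 0.46. The other 3 lay nearest to Gramd3, Dhx33 and Fadd.

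No late-gained peak passed the threshold after NANOG depletion. In the fit of all 27 libraries, 0 of the 218 were higher and 0 lower at 24 h by edgeR's quasi-likelihood test, beside a background of 0.288% higher and 2.25% lower among 166430 peaks. At 6 h the counts were also 0 and 0, beside 0.0367% and 1.08%, and at 2 h 0 and 0, beside 0.0162% and 0.938%. DESeq2 gave 0 and 0 at 2, 6 and 24 h, beside 13, 23 and 231 higher of all 166430 peaks. It called 1108, 1401 and 2882 of them lower. All 218 peaks passed the filter over 27 libraries, but only 195 passed it on the NANOG-FKBP libraries alone, so the rest were tested only through counts in the lines where they were chosen to be high. The fit of those libraries alone also gave 0 of 195 higher and 0 lower at each time. Of its 91029 peaks 4, 8 and 153 were called higher at 2, 6 and 24 h, and 573, 801 and 1868 lower. At an unadjusted p under 0.05, edgeR had 5 higher and 1 lower at 24 h (2.29% and 0.459%, beside 4.14% and 7.21% of all peaks tested). At 6 h it had 5 and 1, beside 2.70% and 5.08%, and at 2 h 2 and 1 (0.917% and 0.459%), beside 3531 and 8648 of the 166430 peaks tested. The median log2 fold changes were -0.03, -0.00308 and 0.09 at 2, 6 and 24 h, against 0.02, 0.03 and 0.08 over the comparison peaks. The median CPM ratios to NT, the measure given above for the other lines, were 0.954, 0.968 and 0.986, against 1.01, 1.01 and 1.04. At 24 h the ratio was above 1 for 104 of the 218 peaks, while the log2 fold change was above 0 for 131. At 24 h all 3 libraries were above both NT libraries for 27 of the 218 peaks (12.4%), beside 10.5% of all peaks tested.

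The precision of the NANOG-FKBP values bounds what could have been missed. The median SE of the 24 h log2 fold change was 0.28. For 153 of the 218 peaks the 95% interval of the fold change ended below a log2 value of 0.81, which is the 75% gain that the rule asked for in the other lines, and for 65 it reached it. A 24 h mean at least 75% above NT was seen for 4 peaks, those nearest to Gm35409, Zcchc13, Tnfrsf19 and Rell1, named after their values were seen, with edgeR adjusted p of 0.16, 0.32, 0.25 and 0.28. The peak near Tnfrsf19, a receptor of the TNF receptor family, had the highest log2 fold change, 1.16, with an interval from 0.23 to 2.09. It was at 1.46 and 1.03 CPM in NT and at 2.28, 4.35 and 2.91 at 24 h. The lowest was -0.86 (SE 0.25, edgeR adjusted p = 0.051) at a peak inside Chd7 (chr4:8798422-8799916), a chromatin remodeller gene, at 7.60 and 11.5 CPM in NT and 5.78, 3.48 and 5.42 at 24 h. That peak was also chosen after its values were seen.

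The shallow libraries moved with the NANOG-FKBP result. The median ratio of the late-gained peaks to the NT mean was 0.720, 0.766 and 0.802 in the 2, 6 and 24 h libraries numbered 2, and 0.946 to 1.16 in the other 6 treated ones. Without those 3 libraries the counts were again 0 and 0 at each time, beside 28, 32 and 470 higher of all 166418 peaks. Those called lower were 1296, 1511 and 3532. The median log2 fold changes of the late-gained peaks were 0.04, 0.08 and 0.14. Leaving out the first library of a time moved its median the other way, to -0.12 at 2 h, -0.16 at 6 h and -0.02 at 24 h. Without the first NT library the medians at 2, 6 and 24 h were -0.08, -0.07 and 0.00493. Without the second NT library they were 0.05, 0.07 and 0.14. For the 18 peaks on chromosome 8 the 24 h median was -0.00195, and for the other 200 it was 0.10. The part of either difference between libraries in these values was not tested.

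**Figure D3:**
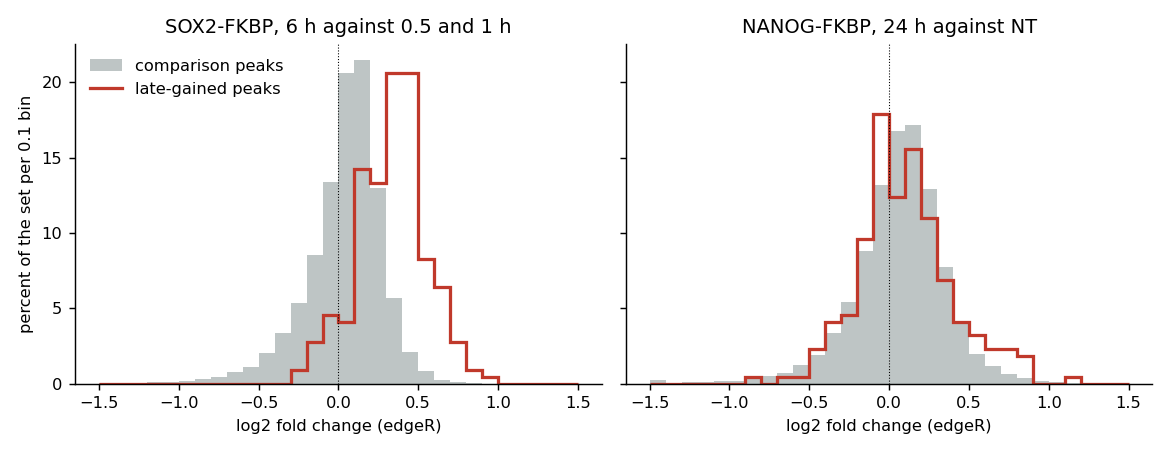
Distribution of edgeR log2 fold changes over the late-gained peaks (line) and the comparison peaks (filled), as percent of each set per bin of 0.1, with values beyond 1.5 in the end bins. In SOX2-FKBP at 6 h against 0.5 and 1 h the late-gained peaks have a median of 0.36 and the comparison peaks 0.07, whereas in NANOG-FKBP at 24 h against NT the medians are 0.09 and 0.08.

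The summit lay within 500 bp of an annotated gene start for 99 of the 218 late-gained peaks (45.4%), against 34.6% of the comparison peaks and 9.94% of all peaks tested. Of these, 94 had a protein-coding gene start within 500 bp, and for 91 the nearest gene start was that of a protein-coding gene. Counting any annotated transcript start gave 129 (59.2%) against 42.8%. Of all 218, 68 (31.2%) were more than 10 kb from a gene start, close to the 32.3% of all comparison peaks, and 12 were more than 50 kb away. By position of the summit, 71 were intronic, 64 intergenic, 47 in a UTR and 36 in another exon. Median width was 1187 bp, against 1248 bp in the comparison peaks.

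The late-gained peaks were also rich in GC. The 200 bp around the summit had a median GC content of 61.8%, against 56.5% in the comparison peaks and 52.0% in all peaks tested, and a ratio of observed to expected CG dinucleotides of 0.646 against 0.452 and 0.242. Distal late-gained peaks had a median GC content of 56.0%, against 53.5% in distal comparison peaks, and promoter ones 66.5% against 65%. A shift with GC was present across the eligible peaks in the same libraries. Their median 24 h ratio was 0.911, 1.005, 1.14 and 1.255 in SOX2-FKBP in the classes of GC below 45%, 45% to 55%, 55% to 65% and 65% or more, and 0.926, 0.959, 1.13 and 1.45 in OCT4-FKBP. In NANOG-FKBP the same medians were 1.06, 1.04, 1.04 and 1.02. The share of eligible peaks that were late-gained was 0.467%, 0.400%, 0.735% and 1.247% in these classes, and 0.943% at promoters against 0.602% elsewhere. Whether this shift with GC comes from the cells or from the libraries was not tested.

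**Figure D4:**
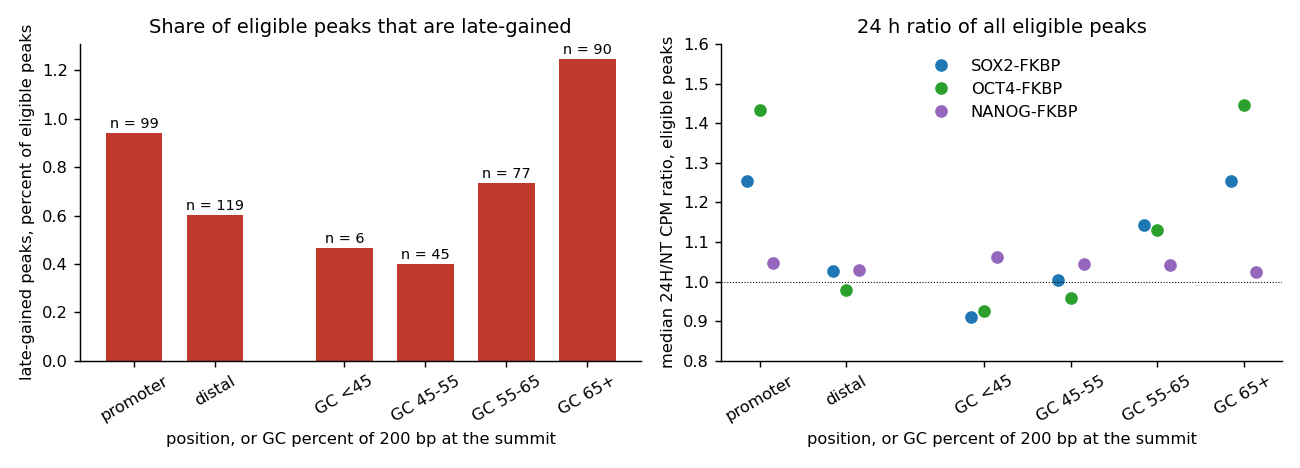
Left, late-gained peaks as percent of the eligible peaks, at promoters (summit within 500 bp of a gene start), elsewhere, and in 4 classes of GC content, with the number of late-gained peaks on each bar. Right, median 24 h over NT ratio of all eligible peaks in the same classes, which in OCT4-FKBP runs from 0.926 at the lowest to 1.45 at the highest GC and in NANOG-FKBP from 1.06 to 1.02.

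Short motifs were searched on both strands of the 200 bp around the summit. CAGCTG, an E-box bound by tissue bHLH factors, was in 51 late-gained peaks (23.4%), against 13.9% of the comparison peaks and 15.1% of all peaks tested. The share was 20.2% against 11.4% at promoters and 26.1% against 15.2% elsewhere. GCCNNNGGC, the TFAP2 pattern, was in 21.1% against 14.0%, with 22.2% against 20.1% at promoters and 20.2% against 10.8% elsewhere. The GC box GGGCGG was in 39.9% against 31.4%, with 52.5% against 55% at promoters and 29.4% against 18.9% elsewhere. CATTGT, a SOX pattern, was in 4.13% against 7.21% and in 10.3% of all peaks tested. The octamer ATGCAAAT of POU factors was in 2.29% against 1.62%, the AP-1 pattern TGANTCA in 5.05% against 4.41%, and the TEAD pattern GGAATG in 12.4% against 11%. GGAATG was in 2.02% against 6.98% at promoters and in 21.0% against 13.1% elsewhere. The NRF1 pattern GCGCATGCG and the ETS pattern CCGGAAG, both of CG-rich promoters, were in 1.38% against 0.983% and in 8.26% against 6.58%. SMAD, p53, MEF2 and PBX patterns had no match in any late-gained peak, and were in at most 0.540% of the comparison peaks. A match is a run of letters and does not show that a factor binds.

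The 218 peaks had 217 different nearest genes, 150 of the peaks had a protein-coding nearest gene, and no gene was nearest to 3 or more. Fgfrl1, a receptor that binds FGF but lacks the kinase domain, was nearest to 2, one 128 bp from its start with 24 h ratios of 1.99 and 1.91 and one 16792 bp downstream of it in intergenic sequence with 1.96 and 3.33 in SOX2-FKBP and OCT4-FKBP. Within 100 kb of each other lay 9 pairs of neighbouring late-gained peaks. Of the 302 genes in 17 lists of lineage, pluripotency and signalling genes, 298 were the nearest coding gene of a tested peak, and 8 of those (2.68%) had a late-gained peak, beside 214 of 19194 coding genes (1.11%). These are shares of genes and do not allow for how many tested peaks each gene is nearest to, so the difference was not tested.

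No late-gained peak had a nearest coding gene in the lists of naive pluripotency (0 of 19 genes), formative and primed epiblast (0 of 17), trophectoderm (0 of 22), primitive endoderm (0 of 20), mesendoderm (0 of 13) or retinoic acid and Hox genes (0 of 17). The lists of 2-cell-like genes (0 of 13), p53 targets (0 of 20), YAP and TEAD targets (0 of 17), sterol synthesis (0 of 16) and germline and methylation-sensitive genes (0 of 16) also had none. At the share of 1.11% over all coding genes, most lists this short would have none, so nothing is read from these counts of 0. In the neural progenitor list 1 of 15 had one, the homeobox gene Meis1, with a peak 8431 bp upstream at 24 h ratios of 1.91 and 1.76.

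In the AP-1 and immediate early list 2 of 17 genes had one. These were the bZIP genes Batf3, at 564 bp from its start, and Atf3, 6454 bp upstream. The Batf3 peak (chr1:191096896-191098995) was at 5.45 and 6.35 CPM in SOX2-FKBP NT and 11.8 and 14.0 at 24 h, and at 5.72 and 7.45 in OCT4-FKBP NT and 18.2 and 17.7 at 24 h, and in NANOG-FKBP it was at 5.99 and 8.27 in NT and 7.36, 1.74 and 5.82 at 24 h. The TGF-beta list had 1 of 19, the promoter of the type II receptor Tgfbr2 (chr9:116174242-116176169), at 10.4 and 9.36 CPM in SOX2-FKBP NT and 14.6 and 20.1 at 24 h, and at 8.46 and 9.77 in OCT4-FKBP NT and 16.0 and 19.7 at 24 h. Its peak is the one just inside the SOX2-FKBP limit.

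The FGF and ERK feedback list had 2 of 16, at Fgfr1, the main FGF receptor of these cells, and Spry2, an antagonist of the ERK cascade, but the peaks lie 30045 bp upstream and 164405 bp downstream of those gene starts. The peak near Fgfr1 (chr8:25482908-25483932) was at 1.36 and 2.06 CPM in SOX2-FKBP NT, 1.77 and 1.78 at 6 h, and 5.54 and 6.40 at 24 h, and at 2.99 and 2.62, 2.08 and 2.27, and 5.28 and 5.42 in OCT4-FKBP. At 6 h this site was level with or below NT in both lines, while the gain at 24 h is what the rule asked for. The adhesion and cytoskeleton list had 1 of 32, Zyx, and the glycolysis list 1 of 18, the mitophagy gene Bnip3, with a peak 9888 bp upstream at 1.88 and 1.85 times NT. A nearest gene is a matter of distance, and these files hold no expression value.

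The distance to peaks lost early was also measured. By edgeR's quasi-likelihood test, 12694 peaks were lower at 2 h of SOX2 or OCT4 depletion. Of the late-gained peaks 52 (23.9%) had one within 25 kb, against 28.0% of the 28794 comparison peaks and 27.6% of the 153736 tested peaks that were not themselves lost. The median distance was 63280 bp, against 57540 bp and 57980 bp.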

How the data were processed

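ATACseq measures accessible chromatin by Tn5 insertion. The authors mapped reads to mm10 with BWA 0.7.17-r1188, kept alignments of mapping quality 10 or more with SAMtools 1.10, removed duplicates with Picard 2.12.0, ran MACS2 on merged time series data, and deposited raw fragment counts per peak. The deposited peak list also gives a score, a fold enrichment ratio and −log10 p-values, of which positions, summits and the fold served. Of 45 samples, 31 had a column and 14 were not analysed here. The late-gained peaks and the gene lists were chosen with earlier results of these data known.

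Tests were edgeR 4.0.16 quasi-likelihood fits (R 4.3.3) with TMM scaling, after a filter that asked for over 10 counts in over 6 of 27 libraries (166430 peaks) or, for SOX2-FKBP alone, in over 2 of 12 (160432 peaks), with a threshold of 0.05 on adjusted p. The steps were tested on simulated data. DESeq2 1.42.0, other scalings, filters, GC offsets, a replicate block and leaving out libraries were alternatives. Gene starts were those of GENCODE vM21. Peaks named are those with the 8 largest ratios, the 8 highest levels, the called ones (up to 6), and those near listed genes, at a threshold or singled out as stated. Between 2173 and 43861 counts per library fell in the 218 peaks.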

Additional observations from a re-analysis of the deposited data

How the results depend on the processing

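The count of 12 late-gained peaks higher at 6 h than at 0.5 and 1 h of SOX2 depletion depended on the fit. It was 0 with DESeq2, 4 with GC offsets and 6 with the 6 libraries of those times alone. All peaks called higher were 115, 965 and 706 in these fits, against 868 in the fit that gave 12. No late-gained peak was lower in any of them. With each of these 6 libraries left out in turn, the median log2 fold change was 0.29 to 0.41. The replicate numbers are not stated to mark a shared culture, and the deviations of same-numbered libraries correlated at 0.106, 0.107 and 0.205 between 0.5, 1 and 6 h, over 2 numbers, at 0.0425 to 0.110 between NANOG-FKBP NT and treated groups, over 2, and at 0.212 to 0.256 between treated NANOG-FKBP groups, over 3. With a replicate block the count was 43, beside 3153 of all 160432 peaks against 868 without it, and 30 with the block and GC offsets, beside 3307. The block ties the second NANOG-FKBP NT library to the shallow ones numbered 2, while its chromosome 8 share is near that of those numbered 3. The NANOG-FKBP counts of 0 became 1 in few fits: 1 gained and 1 lost at 6 h with the replicate block, and also with the block and GC offsets; at 24 h 1 lost with DESeq2 size factors, the block, or the block with GC offsets, 1 gained with the block and GC offsets, and 0 to 1 lost when NANOG-FKBP libraries were left out. A 24 h ratio of at least 2 left 69 late-gained peaks, and a level of at least 8 CPM left 143. Leaving out a single library gave 184 to 471 peaks, of which 134 to 197 were in the set described here. With TMM-scaled CPM 252 peaks met the rule, of which 166 were in that set. With DESeq2 size factors 292 met it, of which 169 were in the set. Totals that included mitochondrial peaks gave 192, of which 192 were in the set. The promoter share was 59.2% with any transcript start. The GC offsets, the block with them, the fit without the shallow libraries and the transcript starts were chosen after seeing the data. The cause of these changes was not tested. In the shallow NANOG-FKBP libraries a late-gained peak held a median of 7 to 15 counts.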
